A study of Mus musculus with 5 samples.

Results

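The transcripts described here encode the proteins of the cytosolic ribosome in mouse macrophages under lipopolysaccharide (LPS). They were taken by symbol from the deposited expression table, as genes named Rpl or Rps with a number, Rplp0 to Rplp2 and Rpsa, and 85 of the 13339 listed genes met this rule. The 8 S6 kinase genes named Rps6k and 2 rows named as pseudogenes were left out. Of the 85 genes, 33 carry small subunit symbols and 52 large subunit symbols. A mean of at least 1 FPKM (fragments counted on a gene, divided by transcript length and library size) over the 5 libraries was reached by 83, and the exceptions were Rpl3l and Rpl39l. The rule also takes in 6 retained copies of standard ribosomal protein genes (Rpl3l, Rpl7l1, Rpl22l1, Rpl36al, Rpl39l and Rps27l), the retrocopy Rpl37rt, and Rps19bp1, whose product binds Rps19 and is no ribosomal protein.

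Bone marrow cells of 8-week C57BL/6 mice had been grown in M-CSF for 5 days into macrophages. They received 100 ng/ml LPS for 4, 8, 12 or 24 h, beside an untreated 0 h sample (all titles begin with WT2; whether cells of several animals were pooled is not stated in the labels). There was 1 library per time point, so no difference given here has a replicate check, no test between times was possible, and every difference compares a pair of libraries. There were no time-matched untreated cultures, so LPS and time in culture cannot be told apart. One protocol field speaks of dendritic cells. All 7 macrophage markers were above the filter, with summed levels of 2052 to 3054 FPKM, whereas 5 of 6 dendritic cell markers averaged under 1 FPKM and the summed level of the dendritic markers was 2.46 to 17.0 FPKM. Only 4 of 7 lymphoid markers were listed, with a sum of at most 0.74 FPKM. Of 7 neutrophil markers 6 were listed, with a sum of 339, 321, 253, 179 and 55.1 FPKM at 0, 4, 8, 12 and 24 h. At 24 h all 6 were at least 2-fold lower than at 0 h and Mpo was listed at 0. Their sum was lowest at 24 h, as were most of the ribosomal transcripts described next. At 4 h the 6 neutrophil markers differed among themselves, with differences from 0 h in log2(FPKM + 1) of -1.08 to 0.96. Of the 6, 1 was at least 2-fold lower and 0 were higher (38.1% and 12.2% of all genes). The part of these cells in the result was not tested. In bulk RNA, fewer cells of a type and less RNA per cell cannot be told apart.

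A cytosolic ribosome joins a small subunit, which reads the mRNA, to a large subunit, which forms the peptide bond, and each ribosomal protein is normally present in a single copy per ribosome, apart from the stalk proteins. Cells make the proteins in matched amounts, and an unassembled excess is degraded. Their mRNAs carry a 5′ terminal oligopyrimidine (TOP) tract, a C at the very start of the transcript followed by a run of C and T, through which mTOR and the RNA-binding protein Larp1 set their translation and stability. In macrophages LPS acts through TLR4, and the response calls on translation to supply large amounts of cytokine and antimicrobial protein.

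The start sites carry letters that the choice by name did not use. RefSeq starts (GRCm38.p6) were found for 65 of the 85 genes. At 13 of these 65 (20%) a start fell on a C followed by at least 4 bases that were each C or T, read on the transcript's strand, against 2.73% of 7938 other genes past the filter and 0 of 68 mitochondrial ribosomal proteins. With the C allowed within 5 bases of the start the shares were 44.6% of the members and 24.0% of the other genes. The windows below show 15 bases before the start and 15 bases from it, with the run of C and T that starts within 5 bases of the start in capitals. The 8 shown to begin with have the run exactly at the start. They include the target of the S6 kinases and 3 members with low 24 h levels relative to 0 h (Rps21, Rplp2 and Rpl38). The rest of the 13 (Rpl14, Rpl15, Rpl35a, Rps15a and Rps18) are not shown. Rpl15 and Rps15a were the least reduced of the 13 at 24 h, with differences from 0 h in log2(FPKM + 1) of -1.64 and -1.88. The windows shown are examples and do not tell whether the run goes with the difference.
Rps6, chr4:86857353-86857382, minus strand: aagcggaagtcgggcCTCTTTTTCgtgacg
Rpl35, chr2:39005117-39005146, minus strand: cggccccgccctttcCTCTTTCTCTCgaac
Rps27, chr3:90213634-90213663, minus strand: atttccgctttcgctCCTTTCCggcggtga
Rplp2, chr7:141447636-141447665, plus strand: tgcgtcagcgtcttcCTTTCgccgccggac
Rpl28, chr7:4792950-4792979, plus strand: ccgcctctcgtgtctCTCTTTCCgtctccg
Rps21, chr2:180257364-180257393, plus strand: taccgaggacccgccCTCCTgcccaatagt
Rpl38, chr11:114668565-114668594, plus strand: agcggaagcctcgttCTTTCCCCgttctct
Rps10, chr17:27635230-27635259, minus strand: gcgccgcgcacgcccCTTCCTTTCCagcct

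For comparison, the windows of Rpl10a, Rps27l, Rpl7l1 and Rpl24 follow. Rpl10a had the lowest log2 difference of 24 h from 0 h among the members, and the other genes had some of the highest. Rpl10a, Rps27l and Rps21 have more than 1 RefSeq start, and 1 of each is shown.
Rpl10a, chr17:28328550-28328579, plus strand: gctctatttgagcgcatgcgcaaagcgctc
Rps27l, chr9:66946071-66946100, plus strand: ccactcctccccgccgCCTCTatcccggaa
Rpl7l1, chr17:46782642-46782671, minus strand: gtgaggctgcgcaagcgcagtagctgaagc
Rpl24, chr16:55966260-55966289, plus strand: agaaagctgttgctaggaaacagactgggc

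At 0 h these genes were among the most abundant transcripts of the macrophages, and they held a smaller part of the table at every later time. The 85 genes made up 10.8%, 5.03%, 4.23%, 3.67% and 2.36% of the summed FPKM at 0, 4, 8, 12 and 24 h. The small subunit held 4.30%, 2.03%, 1.69%, 1.49% and 0.945% of the sum at these times and the large subunit 6.46%, 3.0%, 2.54%, 2.18% and 1.41%, so both subunits declined side by side. The median over the 83 genes past the filter was 666, 271, 243, 213 and 135 FPKM at 0, 4, 8, 12 and 24 h. The median gene of the whole table stood at 11.2, 7.17, 7.87, 8.91 and 10.8 FPKM at the same times, lowest at 4 h and near its starting level at 24 h. Of the 100 genes with the highest FPKM in a library, 39, 3, 3, 1 and 1 were ribosomal protein genes at 0, 4, 8, 12 and 24 h.

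**Figure D1:**
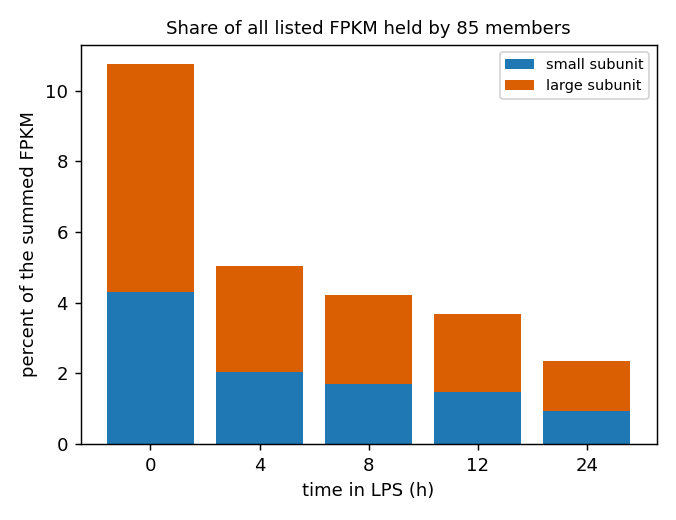
Share of the summed FPKM of all listed genes held by the 85 ribosomal protein genes (y axis, percent, from 0) in the library of each time point (x axis, hours in LPS), stacked by subunit. Bar heights at 0, 4 and 24 h are 10.8%, 5.03% and 2.36%.

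The profile over time is given by its steps. Between 0 and 4 h the median difference in log2(FPKM + 1) was -1.33. The next steps were smaller, with medians of -0.14 for 8 h against 4 h and -0.21 for 12 h against 8 h. Between 12 and 24 h the median was -0.63. This last step spans 12 h and each of the others 4 h, so its size does not show a faster decline. Over all 9795 genes past the filter the medians of the 3 steps after 4 h were positive (0.15, 0.12 and 0.22). Most members are abundant, and 691 other genes also had a mean of at least 100 FPKM. Their medians for these steps were 0.21, -0.10 and -0.21, so the last 2 were negative there too, though smaller than in the members. All 83 genes were highest at 0 h, where 48.7% of all genes were highest. At 24 h 80 of the 83 were lowest, against 8.86% of all genes, and 61 of 83 were lower at every successive time, against 2.24% of all genes. The 3 genes not lowest at 24 h were Rps27l, Rpl7l1 and Rps19bp1, of which 2 are retained copies and the third is not ribosomal.

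**Figure D2:**
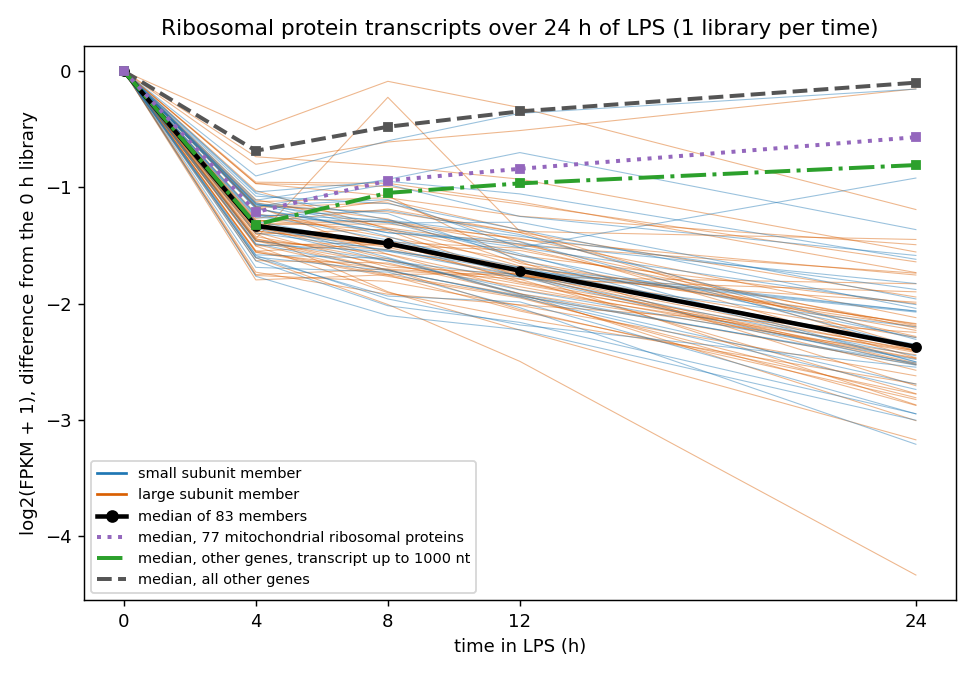
Difference from the 0 h library in log2(FPKM + 1) (y axis) by hours in LPS (x axis), 1 thin line for each of 83 ribosomal protein genes and thick lines for medians. The median of the ribosomal protein genes is -1.33 at 4 h and -2.37 at 24 h, whereas that of the other genes with transcripts up to 1000 nt is -1.32 at 4 h and -0.81 at 24 h.

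Early on, at 4 h, 76 of 83 ribosomal protein genes lay 2-fold or more below 0 h and 0 lay as far above it, against 38.1% (below) and 12.2% (above) of all genes. The 4 h library as a whole lay below the 0 h library, more so for short transcripts, and ribosomal protein transcripts are short: the longest annotated coding transcript of a member had a median of 926 nt, against 3036 nt over all genes past the filter. Among the 488 other genes with transcripts up to 1000 nt the median difference at 4 h was -1.32, close to the -1.33 of the ribosomal protein genes. With the trend by transcript length removed, 0 of 82 ribosomal protein genes remained at least 2-fold lower at 4 h (11.9% of all genes), with a median of -0.13, and with libraries centred on their median gene 12 of 83 did (16.3% of all genes). The 4 h difference was thus of the size seen in other short transcripts. However, only 47 of the 82 members with a length had transcripts up to 1000 nt, and their median was -1.34, like that of the whole group. Other genes with transcripts over 1000 nt had a median of -0.65, and 691 other genes with a mean of at least 100 FPKM had 0.06. The part of transcript length in the 4 h difference was not tested.

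The members differed little among themselves at 4 h. The interquartile range of their differences was 0.32 on the log2 scale, against 1.44 over all genes, and the differences ran between -1.80 and -0.50. Rpl36 had the lowest value, with 103 FPKM at 4 h against 360 at 0 h. Next came Rps15, at the decoding side of the small subunit, with 349 against 1190.3 FPKM, Rplp1 with 646 against 2188 and Rpl41, the shortest ribosomal protein, with 515 against 1736. Rpl24, a late-joining large subunit protein that contacts the small subunit, was the least changed at 4 h, with 315 FPKM against 448 at 0 h, and Rpl7a had 386 against 644 FPKM. Rpl24 went up to 421 FPKM at 8 h and stood at 359.8 at 12 h and 195 at 24 h.

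By 24 h the ribosomal protein genes lay well below the other short transcripts. Of the 83 genes 80 were 2-fold or more below their 0 h level and 0 above it, against 14.5% and 11.3% of all genes. Counts at the times between were 73 of 83 at 8 h (28.9% of all genes) and 78 of 83 at 12 h (21.5% of all genes), with 0 above at either time (12% and 12.3% of all genes). The median difference was -2.37, against -0.11 over all genes and -0.81 over the 488 other genes with transcripts up to 1000 nt, of which 200 were at least 2-fold lower. Of the 47 ribosomal protein genes with transcripts up to 1000 nt 45 were at least 2-fold lower, with a median of -2.41. With the length trend removed 69 of 82 stayed at least 2-fold lower (9.63% of all genes), with a median of -1.52. Small and large subunit genes had medians of -2.35 and -2.39. The spread among members was again narrow, with an interquartile range of 0.53 against 1.04 over all genes. It was nearly as narrow over 77 mitochondrial ribosomal proteins (0.60) and 42 ribosome assembly genes (0.63), but not over 60 genes named Eif or Eef (1.16).

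**Figure D3:**
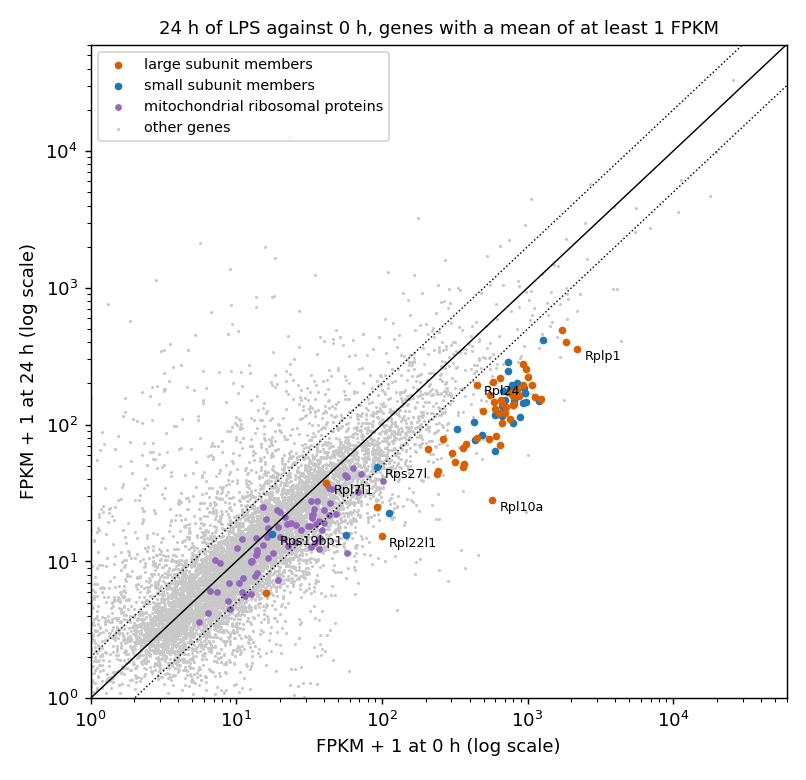
FPKM + 1 at 24 h (y axis, log scale) against 0 h (x axis, log scale) for genes with a mean of at least 1 FPKM. Solid line, equal values; dotted lines, 2-fold apart. The ribosomal protein genes form a compact cloud below the lower dotted line, 80 of 83 of them at least 2-fold lower on the log2(FPKM + 1) scale, apart from the mitochondrial ribosomal proteins, whose median difference is -0.57.

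Rpl10a stood apart from all other members. Its product forms the mobile L1 stalk, where spent tRNA leaves the ribosome, and the gene lies at chr17:28328471-28331033 (GRCm38). Rpl10a had 570.4, 187, 141, 100.2 and 27.3 FPKM at 0, 4, 8, 12 and 24 h, 20.9-fold lower at 24 h than at 0 h. At the estimated depth, counting error alone gives 95% Poisson bounds of 24.7 and 30.1 FPKM at 24 h, against 558 and 583 FPKM at 0 h. Rpl10a was also the lowest member by log2 difference at 12 h (-2.50), and at 24 h it had -4.34, against -3.21 for the next member, Rps21.

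The next members by size were Rps21 (log2 difference -3.21), with 63.6 FPKM at 24 h against 597 at 0 h, Rpl3 (-3.17), which lies by the peptidyl transferase centre, and Rplp2 (-3.01). Rpl3 had 641, 243, 171, 136 and 70.2 FPKM at 0, 4, 8, 12 and 24 h, lower at each time. Towards the other end of the standard proteins was Rpl24 (-1.19).

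**Figure D4:**
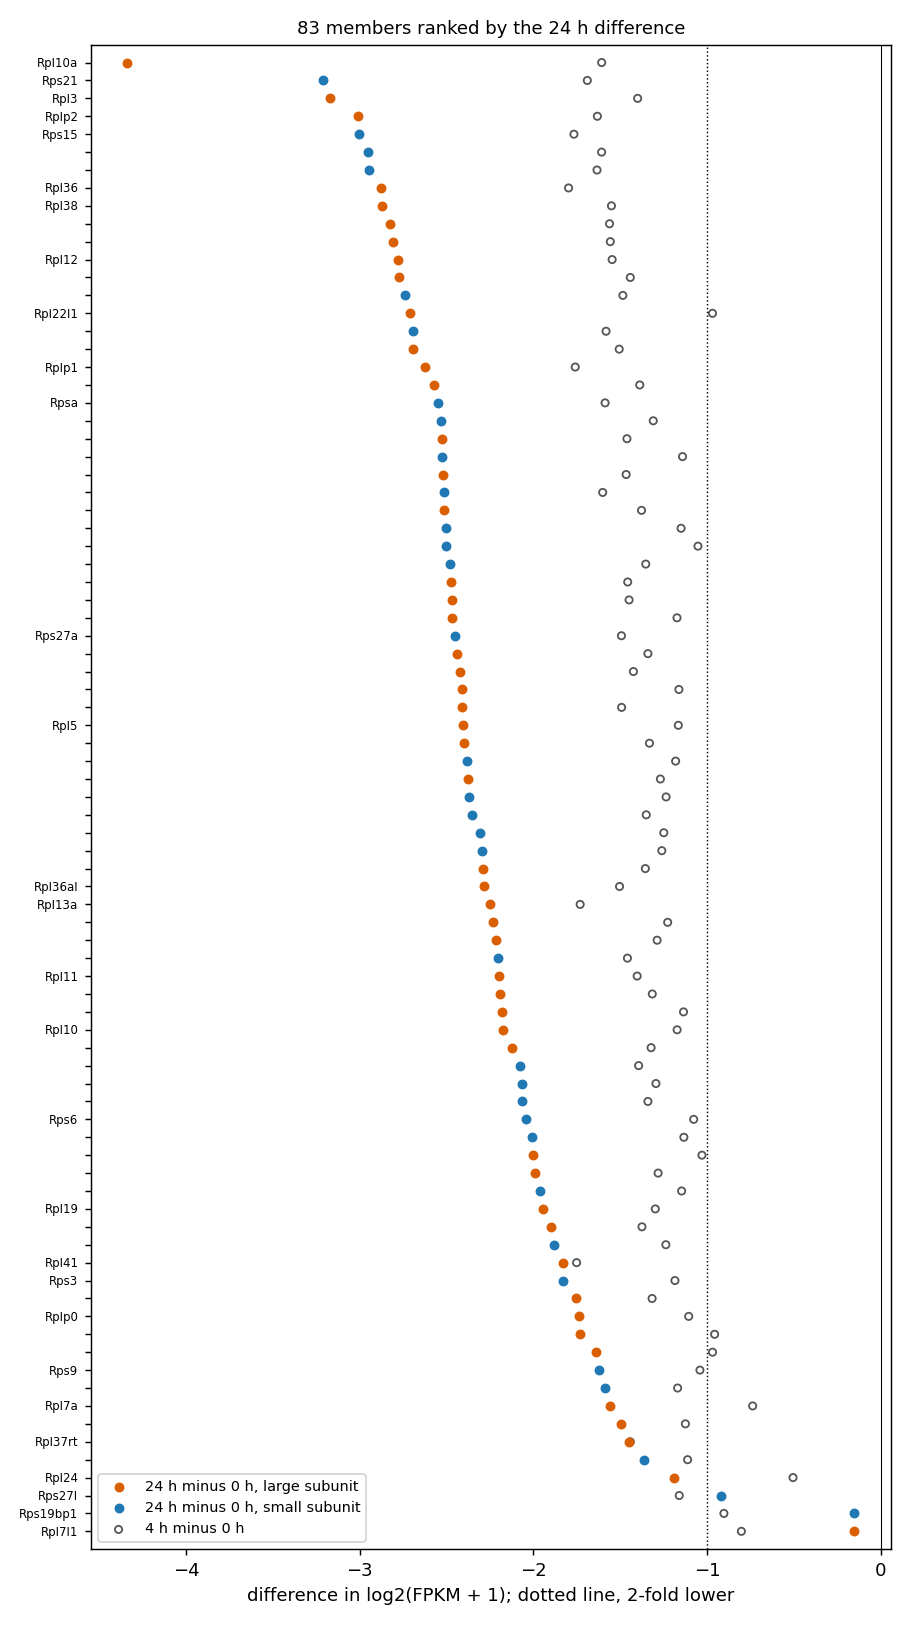
Difference in log2(FPKM + 1) from 0 h (x axis) for 83 ribosomal protein genes (y axis), ranked by the 24 h value, filled points for 24 h and open points for 4 h, with names beside some of the genes. Rpl10a lies lowest at -4.34, and Rps27l, Rps19bp1 and Rpl7l1 are the 3 genes right of the dotted 2-fold line.

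Every group of members defined by place in the ribosome was lower at 24 h than at 0 h. The P stalk, which recruits the elongation factors, comprises Rplp0 and pairs of Rplp1 and Rplp2, with Rpl12 at its base. Rplp1 had the highest mean of all members, with 2188, 646, 624, 540.1 and 355 FPKM at 0, 4, 8, 12 and 24 h. Rplp2 had 1241, 399.9, 394, 329 and 153 FPKM at these times, Rpl12 had 754, 258, 223, 179.5 and 109, and the anchor Rplp0, a common reference gene for quantitative PCR, had 929, 431, 364, 328 and 278. The 24 h differences were -2.62 for Rplp1, -3.01 for Rplp2, -2.78 for Rpl12 and -1.74 for Rplp0, so Rplp0 was the least reduced of the stalk.

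The 5S particle is built from 5S ribosomal RNA with Rpl5 and Rpl11, which bind and block Mdm2, the ubiquitin ligase of p53, when they are not in ribosomes. Rpl5 had 380.03, 169, 127, 103 and 70.8 FPKM at 0, 4, 8, 12 and 24 h. Rpl11 had 664, 251, 258, 207 and 144 FPKM at these times, so both were lower than at 0 h throughout. In the same libraries Mdm2 had 35.4, 108, 114, 125.35 and 172 FPKM, Cdkn1a, a cell cycle inhibitor and p53 target, 34.9, 1047, 290, 302 and 328, and Trp53 itself 28.0, 20.9, 12.1, 12.9 and 15.98. Mdm2 and Cdkn1a were thus at least 2-fold higher than at 0 h at 4, 8, 12 and 24 h (12.2%, 12.0%, 12.3% and 11.3% of all genes). Trp53 was below its 0 h level at all later times. A link of these genes to the levels of Rpl5 and Rpl11 was not tested.

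Around the polypeptide exit tunnel, all 8 of the listed proteins (Rpl4, Rpl17, Rpl19, Rpl23a, Rpl26, Rpl31, Rpl35 and Rpl39) were 2-fold or more lower at 24 h, with a median of -2.23 and a range of -2.57 to -1.94. All 6 small subunit proteins of the mRNA channel were too, with a median of -2.29, between Rps15 (-3.0) and Rps3 (-1.83). All 9 members of a list of genes mutated in human Diamond-Blackfan anaemia, a failure of red cell production, were at least 2-fold lower as well, with a median of -2.38. Since 80 of all 83 members were 2-fold or more lower (14.5% of all genes), these counts do not set the lists apart, and each median is close to the -2.37 of the whole group.

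Members with roles beyond protein synthesis were lower than at 0 h at all later times, as were all 83 members past the filter. Rpl13a, which in human monocytes leaves the ribosome after interferon gamma to silence the translation of inflammatory mRNAs, had 924, 278, 243, 229 and 194 FPKM at 0, 4, 8, 12 and 24 h. Its difference lay among the lowest at 4 h (-1.73) and near the group's median at 24 h (-2.25). Rps3, which in human cells also joins NF-kappaB complexes, had 329, 144, 124.73, 117 and 91.9 FPKM, and Rps6, the target of the S6 kinases, 428, 203, 194, 166 and 103. Rpsa, also known as a laminin receptor, had 487, 162, 124, 106 and 82.5, and Rps27a, made as a fusion to ubiquitin, 812, 288, 277, 238 and 148. Rpl10, added last to the large subunit, had 1823, 809, 652, 566 and 404 FPKM, and Rpl38, needed for the translation of certain Hox mRNAs in mouse embryos, had 609, 207, 217, 181 and 82.3. In every one of these 7 genes the 24 h library was the lowest and at least 2-fold below 0 h. Of all 83 members 80 were lowest at 24 h (8.86% of all genes). Likewise 80 were at least 2-fold lower than at 0 h (14.5% of all genes), so this does not set the 7 apart.

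Fau and Rack1 are ribosomal proteins with names outside the rule. Fau, made as a fusion with a ubiquitin-like protein, had 1668, 510, 488, 458 and 312 FPKM at 0, 4, 8, 12 and 24 h. Rack1, a scaffold on the small subunit, had 731, 316, 269, 246 and 134 FPKM. The 24 h differences, -2.42 for Fau and -2.44 for Rack1, were close to the -2.37 of the group chosen by name.

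The retained copies did not move as a block. Rps27l, a near copy of Rps27 known as a p53 target in human and mouse cells, had 92.2, 40.7, 42.3, 31.5 and 48.2 FPKM at 0, 4, 8, 12 and 24 h. Rps27 itself had 929, 310, 303, 244 and 143 FPKM at these times, so that between 12 and 24 h the copy was higher (log2 difference 0.60) and the standard gene lower (-0.77). For Rps27l the 95% Poisson bounds were 44.1 and 52.7 FPKM at 24 h, against 28.2 and 35.2 FPKM at 12 h; they rest on the estimated depth and cover counting error only, so they do not show a difference between the times. Rpl7l1, a relative of Rpl7 whose yeast counterpart acts in ribosome assembly, had 40.5, 22.8, 26.2, 28.1 and 36.4 FPKM, back near its starting level at 24 h, whereas Rpl7 had 843, 359.8, 313, 271 and 179.

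Rpl22l1 ended lower than its relative. This copy of Rpl22, known in the mouse to be raised where Rpl22 is missing, had 99.0, 50.1, 46.5, 31.1 and 14.3 FPKM at 0, 4, 8, 12 and 24 h, with a 24 h difference of -2.71 against -1.90 for Rpl22 (92.1, 34.9, 31.6, 25.9 and 24.0 FPKM). The pair thus stood at similar levels at 0 h, and the copy was the lower at 24 h. Rpl36al, a close copy of Rpl36a, had 301, 105, 108, 104 and 61.0 FPKM, and Rpl36a 365, 123, 111, 87.3 and 50.7. The retrocopy Rpl37rt had 15.1, 4.91, 12.7, 5.17 and 4.88 FPKM and was the single member 2-fold higher at 8 h than at 4 h (5.23% of all genes), with 0 members 2-fold lower (3.88% of all genes). It was also the single one 2-fold lower at 12 h than at 8 h (0.939% of all genes), with 0 members 2-fold higher (2.58% of all genes). Rpl39l had 0.34 to 1.10 FPKM, and Rpl3l, a muscle form, was listed at 0 at 4 h and at most at 0.61 FPKM. Rps19bp1, the Rps19-binding regulator of Sirt1, had 16.7, 8.47, 10.7, 12.8 and 14.9 FPKM, a course like that of Rpl7l1.

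Reads of near-identical copies may be divided by estimate between members and their copies, and pseudogenes of ribosomal protein genes are many. The row Rpl31-ps12, left out by the rule, had 515, 180, 168, 128 and 81.6 FPKM at 0, 4, 8, 12 and 24 h, where Rpl31 had 315, 119.8, 97.2, 93.2 and 52.1. The pseudogene row was the higher in all 5 libraries and had the same course, so the level of Rpl31 and of other members with copies is uncertain. The values of Rpl36a, Rpl36al, Rps27l, Rpl37 and Rpl37rt carry the same limit.

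The comparison of 24 h with 4 h sets the late state against the early response, with no part for the 0 h library. Of the 83 genes 42 lay 2-fold or more below their 4 h level at 24 h and 0 above it, against 8.19% and 25% of all genes. The median difference was -1.0, against 0.49 over all genes and 0.41 over the other genes with transcripts up to 1000 nt. The group thus moved against both. Over the 691 other genes with a mean of at least 100 FPKM the median was -0.03, and 18.1% of them were at least 2-fold lower. With libraries centred on the median gene 74 of 83 were at least 2-fold lower (16% of all genes), and with the length trend removed 68 of 82 (14.9% of all genes). The lowest differences were those of Rpl10a (-2.73), Rpl3 (-1.77), Rpl22l1 (-1.74) and Rps21 (-1.52). The highest were those of Rps19bp1 (0.75), Rpl7l1 (0.65), Rps27l (0.24) and Rpl37rt (-0.01).

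Of the steps between 4 and 24 h the last, from 12 to 24 h, had the most negative median (-0.63). It was also the longest, spanning 12 h against 4 h for each of the others, so no faster late decline is shown. Between 12 and 24 h 7 members were at least 2-fold lower and 0 higher (3.5% and 3.42% of all genes), led by Rpl10a (27.3 against 100.2 FPKM), Rps21 (63.6 against 145), Rpl38 (82.3 against 181) and Rplp2 (153 against 329). Between 4 and 8 h 20 of 83 members were higher at 8 h (6086 of 9795 over all genes), among them Rps9, Rps24, Rpl9, Rpl19 and Rpl24. Between 8 and 12 h 5 members were higher at 12 h (6288 of 9795 over all genes). Such rises were thus rarer among members than over all genes. Rpl41 kept nearly one level after 4 h, with 515, 532, 509 and 488 FPKM at 4, 8, 12 and 24 h.

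Other parts of the translation machinery are given beside the ribosomal proteins. The 77 listed mitochondrial ribosomal proteins, which are encoded in the nucleus and serve the mitochondrial ribosome, had a median difference of -1.21 at 4 h against 0 h and of 0.65 at 24 h against 4 h, with 0 genes lower and 21 higher by 2-fold or more in that second comparison (8.19% and 25% of all genes). The share of them that was higher, 27.3%, is thus near that of all genes. Their share of the summed FPKM was 0.383%, 0.182% and 0.260% at 0, 4 and 24 h. The 60 genes past the filter named Eif or Eef, mostly initiation and elongation factors, had a median of 0.02 for 24 h against 4 h. Of them 4 were lower and 12 higher, shares of 6.67% and 20% that are near those of all genes. Their median lay below the 0.49 of all genes, however, and 50% of them were below 0, against 27.7% of all genes. At 24 h against 0 h 26.7% were at least 2-fold lower (14.5% of all genes). With 1 library per time point these differences between groups of genes were not tested.

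**Figure D5:**
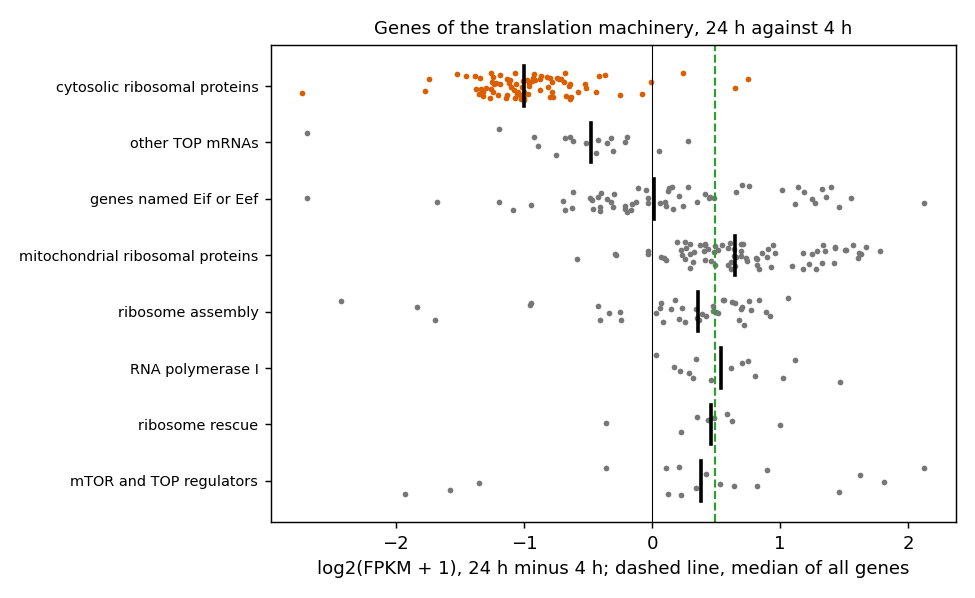
Difference in log2(FPKM + 1) between 24 h and 4 h (x axis) for single genes (points, scattered vertically for clarity) in groups of the translation machinery (y axis), with the median of each group as a black bar and the median of all genes as a dashed line at 0.49. The cytosolic ribosomal proteins have a median of -1.0 and the mitochondrial ones of 0.65.

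Non-ribosomal mRNAs known to carry a TOP tract lay between. Of 18 such genes 14 were 2-fold or more lower at 24 h, relative to 0 h, and 0 were higher (14.5% and 11.3% of all genes), with a median of -1.32, and their median for 24 h against 4 h was -0.48. Eef1a1, which brings aminoacyl-tRNA to the ribosome, had 4387, 2655, 2123, 1902 and 409 FPKM at 0, 4, 8, 12 and 24 h, with a 24 h difference of -3.42, beyond every ribosomal protein but Rpl10a. Its partner Eef1b2 had 163, 61.5, 45.6, 42.4 and 26.2 FPKM, and Naca, which guards nascent chains, 336, 114, 102, 98.2 and 67.6. Not all did so: Hnrnpa1 had 51.6, 59.2, 63.0, 61.7 and 61.7 FPKM, and Pabpc1, the poly(A)-binding protein, 254, 317, 256, 231 and 171.

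Genes that build ribosomes had smaller differences. Of 42 genes for nucleolar processing and assembly 9 were 2-fold or more lower at 24 h, relative to 0 h, and 0 were higher (14.5% and 11.3% of all genes), with a median of -0.43. Nop10 (11.8 against 64.0 FPKM), Imp3 (11.2 against 41.7) and Gnl3 (6.28 against 16.8) had the most negative differences, and Nmd3, an export adaptor of the large subunit, the most positive (16.1 against 11.3). Sbds, which prepares the large subunit for joining, had 30.3, 223, 156, 44.8 and 40.8 FPKM at 0, 4, 8, 12 and 24 h. Of 14 genes of RNA polymerase I past the filter, the enzyme of ribosomal RNA synthesis, 2 were 2-fold or more lower at 24 h, Cd3eap (3.42 against 9.57 FPKM) and Polr1c (10.9 against 23.1), with a median of -0.25. That share, 14.3%, is near the 14.5% of all genes.

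Among 18 regulators of ribosomal protein synthesis 1 was 2-fold or more lower at 24 h, relative to 0 h, and 0 were higher (14.5% and 11.3% of all genes). The gene that was lower was Myc, with 2.39, 4.33, 1.17, 0.76 and 0.40 FPKM at 0, 4, 8, 12 and 24 h. Its levels were low throughout and under 1 FPKM at 12 and 24 h, so this call is uncertain. Larp1, which binds TOP tracts and holds these mRNAs back from translation, had 28.7, 124, 84.3, 74.9 and 41.1 FPKM, 4.33-fold higher at 4 h than at 0 h. Mtor had 4.15, 5.35, 5.74, 6.26 and 6.34 FPKM, and Eif4ebp1, a translation inhibitor that mTOR switches off, 32.8, 11.0, 23.4, 46.1 and 51.3. Of 8 genes that sense or rescue stalled ribosomes 1 was 2-fold or more lower at 24 h, the kinase gene Zak (2.93 against 7.07 FPKM), a share again near the 14.5% of all genes.

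Among the start windows given above for comparison, Rps27l has a run of 5 pyrimidines 1 base after its start, and those of Rpl10a, Rpl7l1 and Rpl24 hold none near it. The 13 members with the run exactly at the start had a median 24 h difference of -2.47 (range -3.21 to -1.64) and the 50 others past the filter with a RefSeq start -2.27 (range -4.34 to -0.15), so the values overlapped widely. When the C was allowed within 5 bases the medians were -2.25 for 29 members with the run and -2.32 for 34 without it. An annotated start may lie some bases from the one used in macrophages, so a missing run says only that these letters are not at this position. In the 300 bases around the start (250 before and 50 from it), the letters CCGGAA, the core bound by ETS factors, were found on either strand in 53.8% of the members, against 34.2% of the other genes and 57.4% of the mitochondrial ribosomal proteins. CCATCTT, the core bound by YY1, was found in 15.4%, 9.12% and 19.1% of them. TATAAA was found in 10.8%, 8.34% and 7.35%, and GGGCGG, the GC box, in 61.5%, 69.6% and 50%, so the GC box was less frequent in members than in the other genes. These matches are descriptions, not sites.

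Within the group, differences went weakly with the features of the transcript. Across members, which are not independent replicates and share their libraries, Spearman's rho between the 24 h difference and transcript length was 0.29 over 82 genes, and 0.31 over 9664 other genes. The rank order of the members by FPKM was largely kept, with a Spearman's rho against 0 h of 0.93, 0.87, 0.85 and 0.80 at 4, 8, 12 and 24 h over 83 genes, whereas over other genes it was 0.71, 0.73, 0.75 and 0.80. Thus the members' ranks drifted from those at 0 h over time, and those of the other genes came back toward them.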

How the data were processed

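RNA of 5 mouse macrophage samples was sequenced, 1 library per time point. Per the file headers, the authors deposited FPKM in a single table, a column for each library. The submitters' processing notes name Bowtie2, RSEM and GRCm38, with neither version nor role; the annotation used and any filter applied were not given in the sources used here. As relative measures, FPKM are lower when other genes take more of a library, and RSEM-type estimates share out reads that match several copies.

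For 8 pairs of libraries log2(FPKM + 1) values were subtracted (low genes' folds are understated on this scale), with Python 3.11.15, pandas 2.3.3 and statsmodels 0.14.6. Counts cover the 9795 genes averaging 1 FPKM or more (3544 did not), and call a gene at 2-fold on that scale. There was no replicate and hence no test. Date-like symbols (20) were replaced through RefSeq gene IDs. Transcript length is that of the longest protein-coding transcript in GENCODE M21, matched by gene ID (99.5% of genes past the filter), and its trend was removed by lowess (span 0.3). Genomic positions come from RefSeq, GRCm38.p6.

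The members and gene lists were chosen with earlier results of these data known. Members named with values are the 6 with the highest mean, the 4 most and least negative in each of 3 comparisons, all copies, and those of the stalk, 5S particle and outside roles; Rpl22, Rps27, Rpl7, Rpl36a, Rpl31, Sbds, Larp1, Eif4ebp1, Mtor, Hnrnpa1 and Pabpc1 were added after their values were seen, in part as the standard gene beside a copy. A few genes that this rule names are not reported here. The motif search was also added after the data were seen. The deposited FPKM give no depth. Steps between low values of genes with 1 transcript fitted 18.7 to 19.6 M reads, with 48.1% to 55.4% of values whole within 0.04 reads or the rounding, against 20.0% to 20.7% by chance for a fixed step; the step was chosen for the best match between 10 and 40 M reads. Since whole reads were thus not recovered, no count test was run, and the Poisson intervals (95%) rest on an estimated depth. Calls and trend removal were tested on simulated data. Alternatives were other pseudocounts and filters, centring, equal sums, the length trend and other member sets.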

Additional observations from a re-analysis of the deposited data

How the results depend on the processing

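Against 0 h at 24 h, the count of 80 lower members was 69 to 80 under the alternatives of pseudocount, filter, scaling, length trend and leaving out copies; of the 47 members with transcripts up to 1000 nt 45 were lower. The 4 h count of 76 became 12 after centring each library (median gene) and 0 without the length trend, and the count of 42 for 24 h against 4 h became 74 and 68. The median at 4 h (-1.33) was -1.30 with a pseudocount of 5, -1.32 with no filter, -0.75 centred, -1.08 with equal sums, -0.13 with the length trend removed and -1.34 both without copies and Rps19bp1 and for transcripts up to 1000 nt. The 24 h median (-2.37) was -2.38 with a pseudocount of 0.1, -2.31 with 5, -2.35 with no filter, -2.32 centred, -2.28 with equal sums, -1.52 with the length trend removed, -2.38 without copies and -2.41 for transcripts up to 1000 nt. That of 24 h against 4 h (-1.0) was -1.01 with a pseudocount of 0.1, -0.96 with 5, -1.53 centred, -1.16 with equal sums, -1.36 with the length trend removed and -1.02 for transcripts up to 1000 nt. The set of transcripts up to 1000 nt was chosen after seeing the data. Without Saa3 and the 20 most induced genes in the sum the share held was 5.36%, 4.66%, 4.10% and 2.73% at 4, 8, 12 and 24 h, and without copies and Rps19bp1 it was 10.7%, 4.98%, 4.18%, 3.63% and 2.32% at 0, 4, 8, 12 and 24 h. With the length trend removed the 4 h differences of Rpl10 (0.10), Rpl19 (0.013), Rps27l (0.22), Rps6 (0.19) and Rps9 (0.068) changed sign, as did those of Rpl24 (0.83), Rpl7a (0.52), Rpl22l1 (0.43) and Rps19bp1 (0.38), which were under 2-fold to begin with; beyond the trend itself the cause was not tested. No paired analysis was possible because each time point has 1 library and no test was run. Depth, an estimate here, limits the low members Rpl3l, Rpl39l and Rpl37rt most.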
